A study of Mus musculus with 16 samples.

Results

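Collagens are the main structural proteins of bone and of the connective tissue around muscle fibers, and the 44 protein-coding genes that encode their chains were followed here in the cortical bone and skeletal muscle of aged mice. They are the protein-coding genes in both deposited tables whose symbol reads Col, a number, a and a number, out of 38933 genes listed in cortical bone and 21011 in skeletal muscle. Female C57BL/6 mice, aged 18 months at the start, received vehicle (VEH) or BAY2416964 (BAY), an orally active antagonist of the aryl hydrocarbon receptor (AhR), a ligand-activated transcription factor. BAY was given at 30 mg/kg by gavage on 5 days per week for 8 weeks, and VEH mice received the carrier by the same route. All animals were wild type, and RNA was sequenced from 4 mice per treatment and tissue, in 1 library per mouse and tissue. Bone RNA came from shafts that had been emptied of marrow stromal cells and digested with collagenase, and muscle RNA came from the tibialis anterior (TA). The comparison asks whether blocking AhR in old animals changed collagen transcripts in either tissue.

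A collagen molecule is built from chains that wind into a rope-like helix, and the chains fall into classes by what the molecule builds. Fibrillar collagens make the load-bearing fibrils: type I (Col1a1, Col1a2) is the main organic component of bone and tendon, type III (Col3a1) accompanies it in soft tissue, and types V and XI control how wide fibrils grow. Type IV chains make the sheet of basement membranes, which in muscle wraps each fiber, and type VI chains make beaded filaments around cells. Type VII (Col7a1) forms anchoring fibrils, the short-chain types VIII and X form hexagonal networks, and the fibril-associated FACIT collagens sit on the surface of fibrils. Membrane-spanning collagens are held in the cell membrane, and the multiplexins (Col15a1, Col18a1) lie in basement membranes.

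The 44 genes lie on 15 chromosomes, and 15 of them neighbor another collagen gene. Of the 8 neighboring pairs, at most 85161 bp apart, 3 are type IV pairs that start head to head and are read in opposite directions: Col4a1 with Col4a2, Col4a4 with Col4a3 and Col4a6 with Col4a5. In the coordinates of the deposited tables (mm39), Col4a1 and Col4a2 overlap by 22 bp at their starts. Promoter sequences from RefSeq (GRCm38.p6) matched 35 of the 44 genes, and 4 are shown because they belong to the genes whose values in muscle are described below. Capitals mark GCGTG, the core of the element that AhR binds, and GGGCGG, the GC box, on either strand (read there as CACGC and CCGCCC). The first 3 are the 250 bases before the start of Col7a1 (chr9:108953336-108953585, plus strand), Col24a1 (chr3:145292222-145292471, plus strand) and Col11a2 (chr17:34038888-34039137, plus strand). The last is the 22 bases shared by the starts of Col4a1 and Col4a2 (chr8:11312805-11312826, written on the plus strand, that of Col4a2).
Col7a1: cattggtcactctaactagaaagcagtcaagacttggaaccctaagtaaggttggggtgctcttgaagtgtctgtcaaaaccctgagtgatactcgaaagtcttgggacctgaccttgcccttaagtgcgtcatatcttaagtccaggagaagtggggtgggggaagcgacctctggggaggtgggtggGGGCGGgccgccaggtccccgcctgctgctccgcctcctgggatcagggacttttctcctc
Col24a1: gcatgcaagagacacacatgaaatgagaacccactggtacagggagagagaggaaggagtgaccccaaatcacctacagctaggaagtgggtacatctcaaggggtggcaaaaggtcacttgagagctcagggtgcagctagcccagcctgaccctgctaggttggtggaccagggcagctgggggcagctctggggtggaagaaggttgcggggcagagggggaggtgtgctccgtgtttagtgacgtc
Col11a2: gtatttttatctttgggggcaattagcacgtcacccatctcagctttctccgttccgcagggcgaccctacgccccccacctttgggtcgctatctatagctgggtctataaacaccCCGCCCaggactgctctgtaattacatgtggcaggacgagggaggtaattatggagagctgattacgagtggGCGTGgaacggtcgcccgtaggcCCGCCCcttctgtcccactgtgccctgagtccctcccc
Col4a1 and Col4a2: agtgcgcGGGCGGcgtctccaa
The GCGTG core stood in the 250 bases before 8 of the 35 collagen starts (22.9%) and before 28.2% of the 27025 promoters in the table. The GC box stood before 21 of the 35 (60.0%) and before 32.9% of all promoters. Among the sequences printed, that of Col11a2 holds the core and those of Col7a1 and Col24a1 do not. The 250 bases before Col4a1 and before Col4a2 each hold 1 core, outside the 22 bases shown.

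Reads on genes came to between 930306 and 6951916 per bone library and between 6131921 and 9262388 per muscle library, so the value of 3 reads lay between 0.432 and 3.22 CPM (reads scaled to a common library total) in bone and between 0.324 and 0.489 CPM in muscle. These limits cover counting error only. In bone, 28 of the 44 genes had at least 10 reads in every library, and in muscle 24 did. Bone libraries differed widely among themselves. Summed markers of osteoblasts and osteocytes ranged from 228 to 5206 CPM in VEH and from 173 to 2628 CPM in BAY, and summed markers of skeletal muscle fibers from 45.1 to 8734 CPM in VEH and from 85.3 to 36036 CPM in BAY, with the highest muscle values in VEH replicate 1 and BAY replicates 1 and 2. Olfactory receptor genes, which serve smell and give a measure of background reads, averaged 0.138, 7.89, 1.47 and 6.05 CPM per kb of exon in VEH replicates 1 to 4 and 3.24, 2.77, 2.80 and 9.50 CPM per kb in BAY replicates 1 to 4. In muscle, 6 of 8 osteoblast markers and all 5 neutrophil markers were not listed in the table, and the column of VEH replicate 3 carries a word for replacement in its name. The tables were normalized separately, so levels in the 2 tissues are set side by side without a test.

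Type I collagen led in cortical bone. Per kb of exon, Col1a1 averaged 1066 CPM and Col1a2 averaged 624 CPM over the 8 libraries, followed by Col2a1, the main collagen of cartilage, at 50.6 CPM, Col11a2 at 33.9 CPM and Col3a1 at 31.5 CPM. Below type I this order did not hold within libraries, since Col3a1 (67.9 CPM per kb) was above Col2a1 (22.6) in VEH replicate 1 and Col25a1 (49.8 and 46.7) was above Col2a1 (17.3 and 20.6) in VEH replicate 2 and BAY replicate 4. Only Col1a1, Col1a2 and the membrane-spanning Col25a1 stood at 3 or more times the olfactory background in all 8 libraries, and for Col25a1 this holds only with the length of a short transcript of 2624 bases. With all its annotated exons, 13034 bases, Col25a1 lay between 0.802 and 3.51 times the background and under it in 2 libraries, and 5 other annotated genes overlap it on its own strand. In 7 libraries, all but VEH replicate 1, 14 genes lay under the background throughout. These were Col4a3 to Col4a6, Col6a5, Col7a1, Col9a1 to Col9a3, Col14a1, Col17a1, Col19a1, Col20a1 and Col28a1. The summed level of the 44 genes ranged from 0.262% to 2.89% of all CPM, and type I made up between 41.5% and 86.0% of that sum.

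Skeletal muscle had another order. Per kb of exon, the basement membrane chains Col4a1 and Col4a2 averaged 10.8 and 10.6 CPM, followed by the type VI chains Col6a3 at 5.20 and Col6a1 at 4.74 CPM, Col3a1 at 4.68 CPM, Col1a1 at 4.46 CPM and Col1a2 at 3.80 CPM. The ranges of Col6a3 to Col1a2 overlapped widely over the 8 libraries, so their order is not set by these data. The lowest were Col2a1 and Col6a4, each listed at 0 in at least 1 library, as were 11 of the 44 genes. The 44 genes together made up 0.0299% to 0.0764% of all CPM. Type IV took 24.3% to 36.6% of the collagen sum, fibrillar chains 24.2% to 39.9% and type VI 16.5% to 22.3%, while type I took 6.63% to 19.4%, with the highest share in VEH replicate 3.

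**Figure D1:**
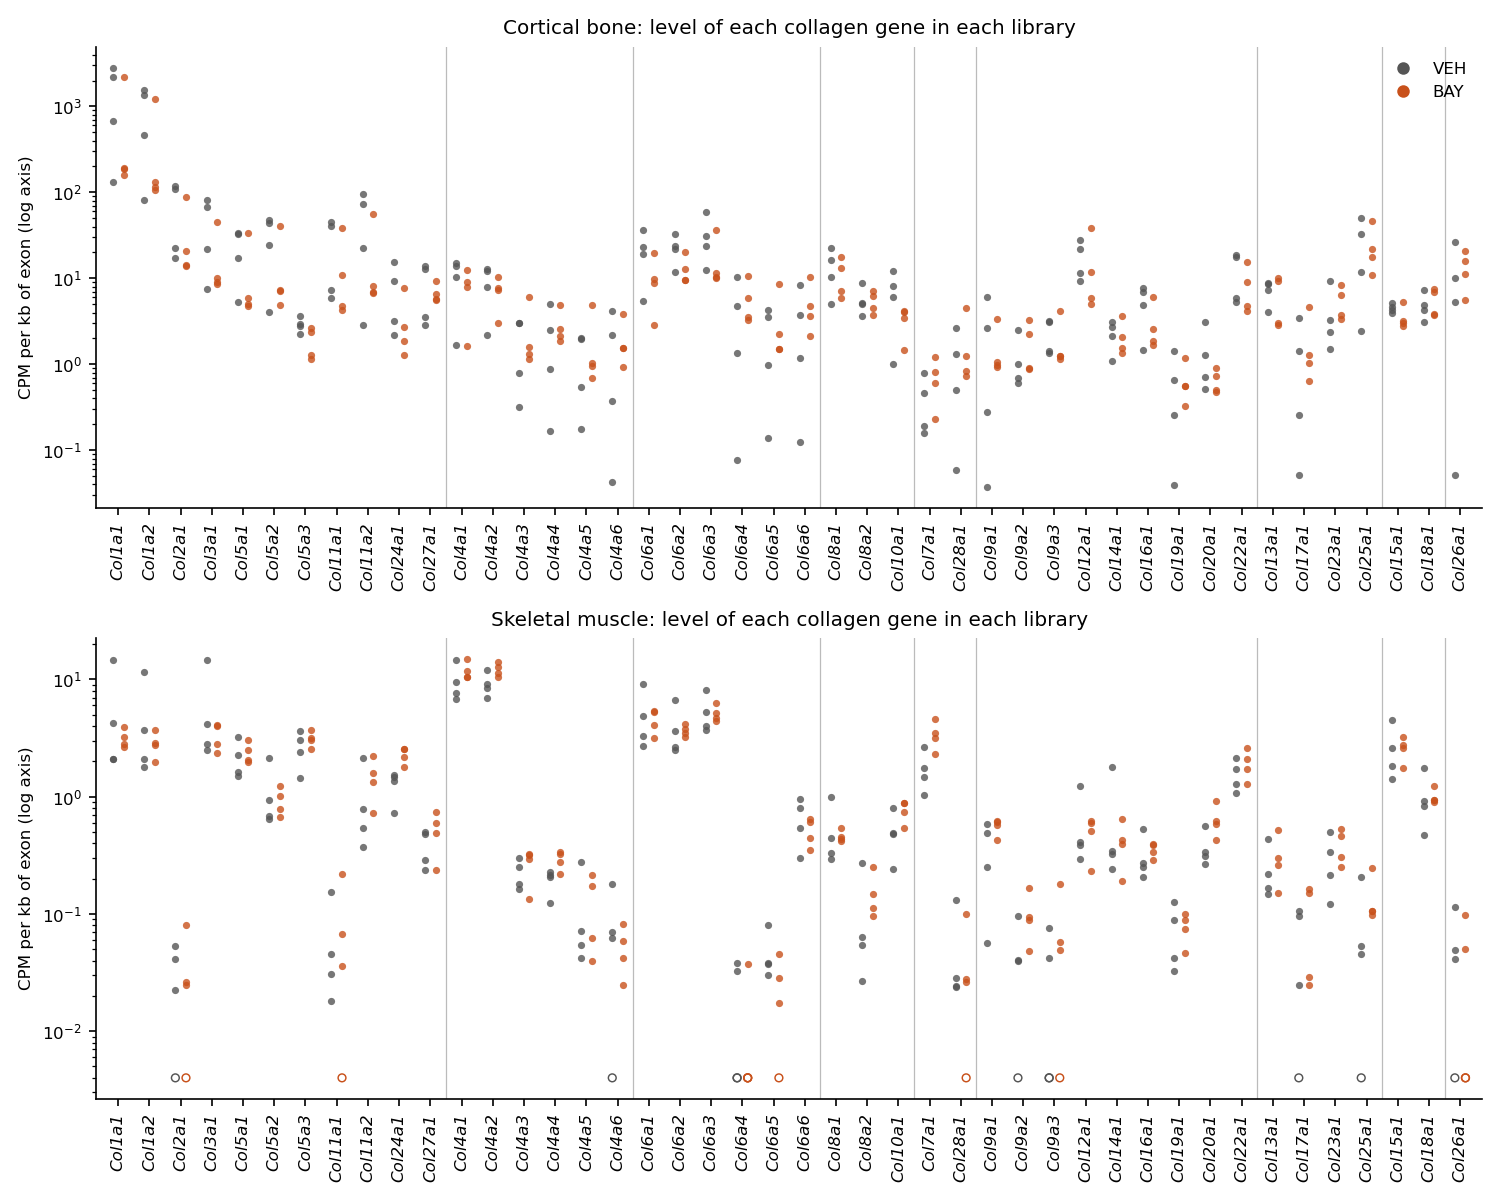
Level of each of the 44 collagen genes in CPM per kb of exon (log axis) in each of 4 VEH (gray) and 4 BAY (orange) libraries, in cortical bone (top) and skeletal muscle (bottom). Vertical lines part the classes, and open circles at the foot of the lower panel mark values listed at 0. Col1a1 and Col1a2 stand above all other genes in bone, averaging 1066 and 624, and Col4a1 and Col4a2 lead in muscle at 10.8 and 10.6.

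In cortical bone, no collagen gene separated BAY-treated from VEH-treated mice. With limma on the deposited log2 values, 0 of 44 collagen genes were called (unadjusted P under 0.05 and at least 2-fold), against 0.64% of all genes. At an unadjusted P under 0.05 alone the count was 0 as well, against 0.64%, and in 0 of 44 genes did the groups not overlap, against 0.406% of all genes. The lowest adjusted P was 0.887. Among the 44 genes, 18 had a positive and 26 a negative log2 fold change, and 16 a higher and 28 a lower mean CPM in BAY. The median log2 fold change was -0.28, while the median of all genes was 0.84 and 80.9% of them were higher. Without VEH replicate 1 the median of all genes was -0.088 and 14 collagen genes were higher, and without VEH replicate 2, 7 collagen genes were called, 5 lower and 2 higher, against 2.87% of all genes, of which 1059 were higher and 57 lower. After median centring, which sets the library medians equal, 11 collagen genes were higher and their median was -1.13. Of all genes, 49.5% were higher after that step. The olfactory background differed between libraries, and how far it set their medians was not tested. The centred values are therefore another scaling and not a cleaner estimate. Among the 13 collagen genes whose mean level per kb over the 8 libraries was at least 3 times the mean olfactory background, 1 was higher and 12 lower, with a median of -1.04, where 71.8% of the 3151 genes kept were higher. That filter used the same values, so a gene could pass through high VEH libraries alone, and no conclusion is drawn from the split. The 1 higher gene was Col25a1, taken at the length of a short transcript. With the background taken off 6 collagen genes were higher and 33 lower, beside 42.9% of all genes higher.

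Type I collagen shows the spread behind these values. Col1a1 (chr11:94827050-94843868, mm39, plus strand) stood at 4028, 782, 16601 and 13078 CPM in VEH replicates 1 to 4 and at 1145, 942, 12881 and 1101 CPM in BAY replicates 1 to 4. VEH replicates 1, 3 and 4 and BAY replicate 3 were the 4 highest, and the groups overlapped, with the lowest library of all in VEH. The log2 fold change was -1.37 (SE 1.32, limma unadjusted P = 0.319), and it was -2.27 without VEH replicate 2 or without BAY replicate 3 and -0.80 without VEH replicate 3. Without the 3 libraries that hold the most muscle fiber RNA it was -0.56, and after median centring -2.22. Col1a2 (chr6:4504814-4541544, mm39, plus strand), which encodes the partner chain, stood at 2484, 439, 8257 and 7174 CPM in VEH and at 624, 569, 6499 and 703 CPM in BAY. Its log2 fold change was -1.33 (SE 1.17, limma unadjusted P = 0.277), and it ran from -2.23 to -0.82 with single libraries left out and was -0.47 without those 3 libraries. The libraries ranked almost alike for both chains, and VEH replicates 3 and 4 and BAY replicate 3, the highest, were also the 3 highest in the osteoblast and osteocyte markers (5206, 1966 and 2628 CPM), the neutrophil markers (332, 1398 and 739 CPM, others up to 153 CPM) and the fibroblast markers (324, 384 and 329 CPM, others up to 252 CPM). The other marker sets had other top 3 libraries, tendon, erythroid and chondrocyte markers among them. Chondrocyte markers, collagens left out, ranged from 161 to 370 CPM in VEH and from 120 to 158 CPM in BAY, the only set without overlap. In bulk tissue, fewer cells of a type and less RNA per cell cannot be told apart, and the part of cell content in these values was not tested.

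**Figure D2:**
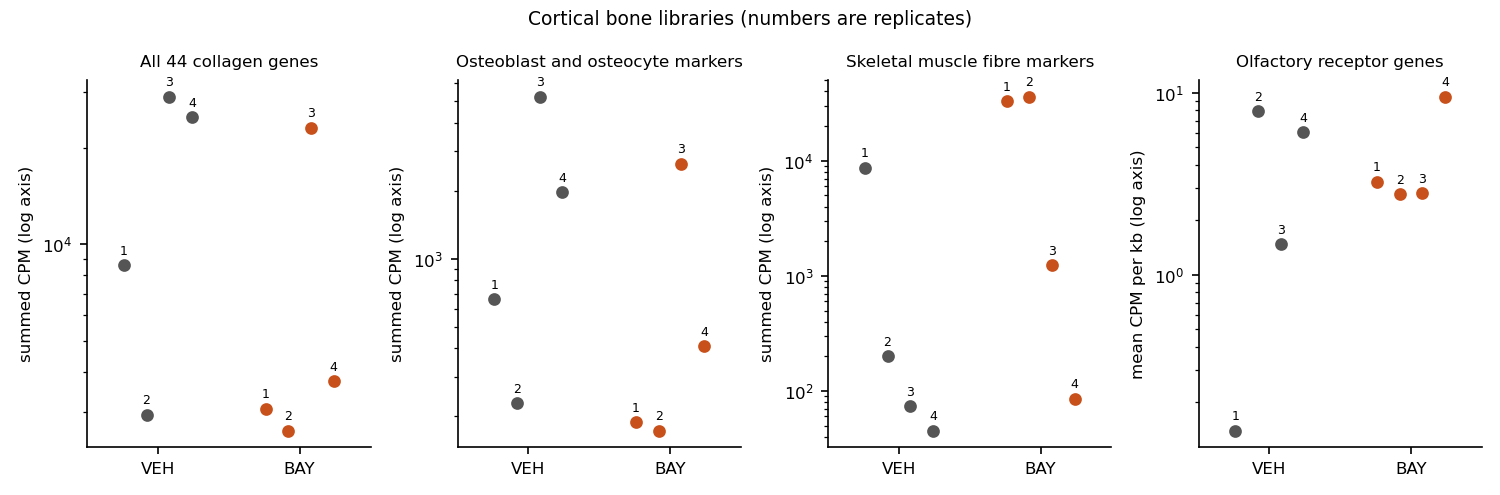
Summed CPM of the 44 collagen genes, of 8 osteoblast and osteocyte markers and of 9 skeletal muscle fiber markers, and mean CPM per kb of olfactory receptor genes, in the 8 cortical bone libraries (log axes, numbers are replicates). The collagen sum is highest in VEH replicates 3 and 4 and BAY replicate 3, which also lead in osteoblast and osteocyte markers and, not plotted, in neutrophil and fibroblast markers, and BAY replicates 1 and 2 hold the most muscle fiber RNA.

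The 2 type I chains kept their proportion although their level moved. Col1a1 varied 21.2-fold and Col1a2 18.8-fold over the 8 bone libraries, but the ratio of Col1a1 to Col1a2 CPM ranged only from 1.57 to 2.01. It averaged 1.81 ± 0.160 (SD, n = 4) in VEH and 1.76 ± 0.186 (SD, n = 4) in BAY (two-sided exact permutation test, P = 0.714). Per kb of exon these means were 1.63 and 1.59, and a type I molecule holds more of the chain from Col1a1 than of that from Col1a2. In muscle, at a far lower level, the CPM ratio ranged from 1.10 to 1.49 and averaged 1.27 ± 0.124 in VEH and 1.26 ± 0.175 in BAY (n = 4 each, exact P = 0.943). In all, 12 such ratios were tested over both tissues, none passed, and the lowest adjusted P was 0.971, where the smallest P that 4 against 4 libraries allow is 0.0286 before adjustment.

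**Figure D3:**
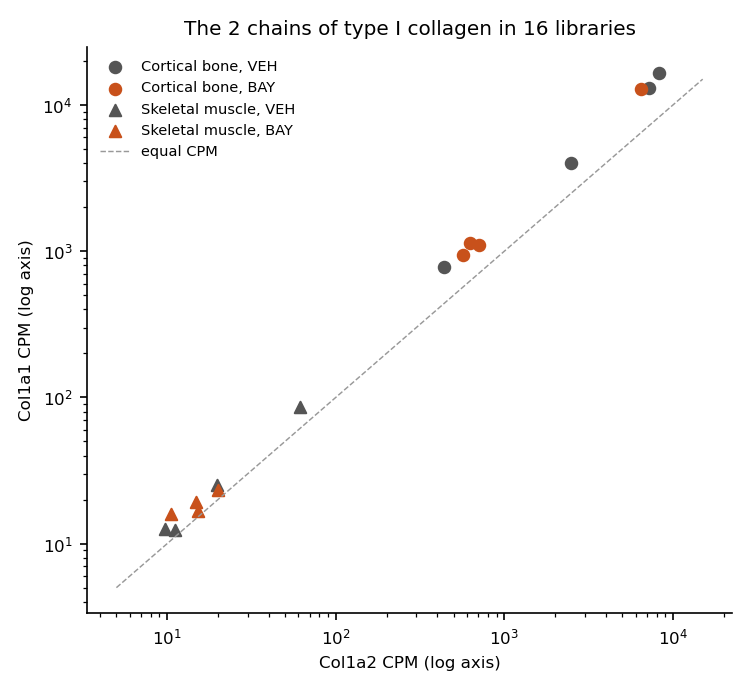
CPM of Col1a1 against CPM of Col1a2 (log axes) in 8 cortical bone libraries (circles) and 8 skeletal muscle libraries (triangles), VEH in gray and BAY in orange. All points lie above the dashed line of equal CPM, with ratios of 1.57 to 2.01 in bone and 1.10 to 1.49 in muscle.

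In 8 of the 11 fibrillar genes, type I included, the 3 highest bone libraries were VEH replicates 3 and 4 and BAY replicate 3, and in Col3a1, Col5a3 and Col27a1 they were not. All 11 fibrillar genes had a lower mean CPM in BAY, 10 of them also a negative log2 fold change, and none passed the test, with a median log2 fold change of -1.09. Col2a1 stood at 118, 90.2, 626 and 567 CPM in VEH and at 73.3, 74.0, 455 and 107 CPM in BAY, a log2 fold change of -0.96 (SE 0.81, limma unadjusted P = 0.257). Its highest values again fell in VEH replicates 3 and 4 and BAY replicate 3. Col27a1 had a log2 fold change of 0.035 (SE 0.63). Summed over the class, fibrillar genes reached 7589, 1630, 27356 and 22861 CPM in VEH and 2147, 1854, 21444 and 2300 CPM in BAY. The VEH mean of 14859 ± 12221 CPM and the BAY mean of 6936 ± 9674 CPM (SD, n = 4 each) differed by less than either SD.

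Other classes varied less in bone than the fibrillar sum, which spanned 16.8-fold over the 8 libraries, apart from Col26a1. Type IV spanned 1.41-fold, the multiplexins 1.61-fold, the short-chain genes 2.94-fold, type VI 3.77-fold, FACIT genes 4.70-fold, Col7a1 with Col28a1 5.81-fold and the membrane-spanning genes 8.15-fold. Summed type IV chains stood at 186, 145, 204 and 201 CPM in VEH and at 167, 154, 194 and 191 CPM in BAY, means of 184 ± 27.5 and 176 ± 19.4 CPM (SD, n = 4 each). Within that sum the chains did not move alike, since Col4a1 was lowest where the background was highest. It stood at 92.9, 11.05, 99.9 and 68.4 CPM in VEH and at 60.3, 52.9, 83.5 and 10.7 CPM in BAY (log2 fold change -0.32, SE 0.83). VEH replicate 2 and BAY replicate 4, the 2 low libraries, had 12 and 10 reads of the gene. In these 2 libraries most of the type IV sum came from Col4a3 to Col4a6, which lay under the olfactory background there. Col4a4, for example, stood at 52.5 and 50.5 CPM in them and at 1.73 CPM in VEH replicate 1. The narrow span of the sum therefore does not show steady type IV transcripts. The multiplexin sum was 53.7 ± 8.27 CPM in VEH and 51.3 ± 8.10 CPM in BAY.

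Col6a3, the longest of the main type VI chains, stood at 218, 113, 286 and 544 CPM in VEH and at 106, 93.0, 335 and 94.6 CPM in BAY, with a log2 fold change of -0.91 (SE 0.65, limma unadjusted P = 0.184). Of the 4 BAY libraries, 3 were below all VEH libraries, and BAY replicate 3 was above 3 of them. The FACIT gene Col12a1, active in tendon and bone surfaces, stood at 136, 110, 334 and 258 CPM in VEH and at 69.7, 60.0, 456 and 140 CPM in BAY (-0.56, SE 0.70). Its sign turned without the 3 libraries that hold the most muscle fiber RNA, where the log2 fold change was 0.26. The network-forming Col8a1 stood at 25.9, 53.4, 83.6 and 114 CPM in VEH and at 36.7, 30.2, 67.7 and 91.4 CPM in BAY (-0.24, SE 0.62). Col18a1, which yields the fragment endostatin, stood at 17.3, 41.4, 23.7 and 27.7 CPM in VEH and at 38.4, 21.5, 20.9 and 41.9 CPM in BAY (0.16, SE 0.58), and its sign turned after median centring (-0.69). Both genes overlapped between the groups.

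Voom on the recovered reads named 3 collagen genes in bone that limma on log2 values did not, where 3.68% of all genes were at an unadjusted P under 0.05. They were Col26a1 (voom in limma, log2 fold change 3.29, unadjusted P = 0.0169), Col6a4 (2.84, unadjusted P = 0.0158) and Col6a6 (2.47, unadjusted P = 0.0220), all higher in BAY and all at an adjusted P of 0.731. Of the 1433 genes of the whole table at that threshold, 1431 were higher in BAY. Col26a1, an outlying member of the family, had 1, 81, 42 and 39 reads in VEH and 100, 76, 31 and 54 in BAY. Col6a4 had 4, 84, 28 and 48 reads in VEH and 98, 59, 52 and 74 in BAY. Col6a6 stood at 1.15, 77.1, 10.98 and 34.9 CPM in VEH and at 44.6, 33.5, 20.01 and 95.1 CPM in BAY. All 3 were lowest in VEH replicate 1, the library with the lowest olfactory background, and their groups overlapped. Relative to that background, Col6a4 lay between 0.564 and 1.83 times and Col6a6 between 0.624 and 1.49 times in the 8 libraries. Col26a1 lay between 0.370 and 4.91 times, and between 1.67 and 4.91 times without VEH replicate 1. With all its annotated exons as length, 8176 bases in place of 2806, Col26a1 lay between 0.574 and 1.69 times without VEH replicate 1. Without VEH replicate 1 the limma log2 fold changes were 0.093 for Col26a1, 0.37 for Col6a4 and 0.41 for Col6a6. Col25a1 stood at 6.33, 131, 30.8 and 85.2 CPM in VEH and at 46.9, 28.9, 57.03 and 123 CPM in BAY (0.53, SE 0.87), and without VEH replicate 1 at -0.33.

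In skeletal muscle, a few collagen genes were higher in BAY-treated mice and none passed adjustment over all genes. Of the 44, 4 were at an unadjusted P under 0.05, against 9.79% of all genes, and all 4 were higher in BAY: Col7a1, Col24a1, Col4a2 and Col20a1. Of the 44, 1, Col7a1, was called at 2-fold, against 2.43% of all genes, and 1 of 44, Col24a1, had groups that did not overlap, against 5.73% of all genes. The lowest adjusted P was 0.295. Voom on the recovered reads put 6 of 44 at an unadjusted P under 0.05, against 10.5%, adding Col11a2 and Col9a1, and called 2, against 3.33%. The limma shares, 4, 1 and 1 of 44, lie near or under those of all genes, and those of voom lie above them. Over the 44 genes, 31 had a positive log2 fold change, and 27 a higher mean CPM in BAY, with a median log2 fold change of 0.25, while the median of all genes was 0.06 and 55.2% of them were higher.

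Col7a1 (chr9:108782654-108813943, mm39, plus strand) encodes the chain of the anchoring fibrils that tie a basement membrane to the fibrils beneath it. It stood at 9.54, 24.5, 13.7 and 16.3 CPM in VEH and at 32.1, 29.2, 21.3 and 42.4 CPM in BAY. BAY replicates 1, 2 and 4 were above all VEH libraries, and BAY replicate 3 was below VEH replicate 2. The means were 16.03 ± 6.32 and 31.2 ± 8.71 CPM (SD, n = 4 each), a log2 fold change of 1.00 (SE 0.26, limma unadjusted P = 0.00183, adjusted P = 0.295). Fits that dropped 1 library gave log2 values of 0.78 to 1.23, each at an unadjusted P under 0.05. The 2-fold call was lost in 8 of 16 alternatives. Among them were the fits without VEH replicate 1 (0.78), VEH replicate 3 (0.954), BAY replicate 1 (0.975) and BAY replicate 4 (0.841). The gene spans 119 exons, and 2 other annotated genes, Mir711 and Gm69443, overlap it, 1 on its own strand and 1 on the other.

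Col24a1 (chr3:144998233-145257766, mm39, plus strand), a fibrillar chain known from forming bone, stood at 9.78, 11.01, 5.18 and 10.5 CPM in VEH and at 15.5, 12.7, 18.3 and 18.2 CPM in BAY. All BAY libraries were above all VEH libraries. The means were 9.12 ± 2.67 and 16.2 ± 2.66 CPM (SD, n = 4 each), a log2 fold change of 0.87 (SE 0.23, limma unadjusted P = 0.00214, adjusted P = 0.295), and it ranged from 0.62 to 0.98 with single libraries left out. The smallest of these came without VEH replicate 3, the lowest library. Another 3 annotated genes overlap Col24a1, 1 of them on its own strand and 2 on the other, and whether reads were counted by strand is not given in the sources used here. In bone the gene stood at 15.5, 23.0, 111 and 67.0 CPM in VEH and at 13.4, 9.10, 55.0 and 19.3 CPM in BAY, a log2 fold change of -1.09 (SE 0.79). The difference between tissues was not tested.

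Of the 6 type IV genes, 5 had a higher mean CPM in BAY muscle, and Col4a2 alone was at an unadjusted P under 0.05. Col4a6 had 0.518 CPM in VEH and 0.345 CPM in BAY, and its log2 fold change of 1.68 (SE 2.08) became -0.97 without VEH replicate 4, where it was listed at 0. Col4a2 (chr8:11362805-11499287, mm39, plus strand) stood at 46.8, 61.1, 81.7 and 56.8 CPM in VEH and at 76.8, 71.1, 94.0 and 86.2 CPM in BAY. Its log2 fold change was 0.43 (SE 0.16, limma unadjusted P = 0.0178, adjusted P = 0.409), with VEH replicate 3 inside the BAY range. Col4a1, its head-to-head partner (chr8:11248423-11362826, mm39, minus strand), stood at 45.4, 62.7, 97.1 and 50.5 CPM in VEH and at 69.1, 69.96, 98.8 and 77.6 CPM in BAY (0.35, SE 0.21, limma unadjusted P = 0.111). The ratio of Col4a1 to Col4a2 CPM ranged from 0.889 to 1.19 over the 8 libraries and averaged 1.02 ± 0.126 in VEH and 0.958 ± 0.0734 in BAY (SD, n = 4 each, two-sided exact permutation P = 0.543). The unadjusted limma P of Col4a2 reached 0.0689 with single libraries left out, and without VEH replicate 3 the log2 fold changes were 0.58 for Col4a2 (unadjusted P = 0.000923) and 0.57 for Col4a1 (unadjusted P = 0.00276). Summed type IV chains stood at 131 ± 38.8 CPM in VEH and 167 ± 24.1 CPM in BAY (SD, n = 4 each). Summed endothelial markers, from cells that also make this basement membrane, ranged from 151 to 174 CPM in VEH and from 157 to 194 CPM in BAY, and their part in these values was not tested.

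**Figure D4:**
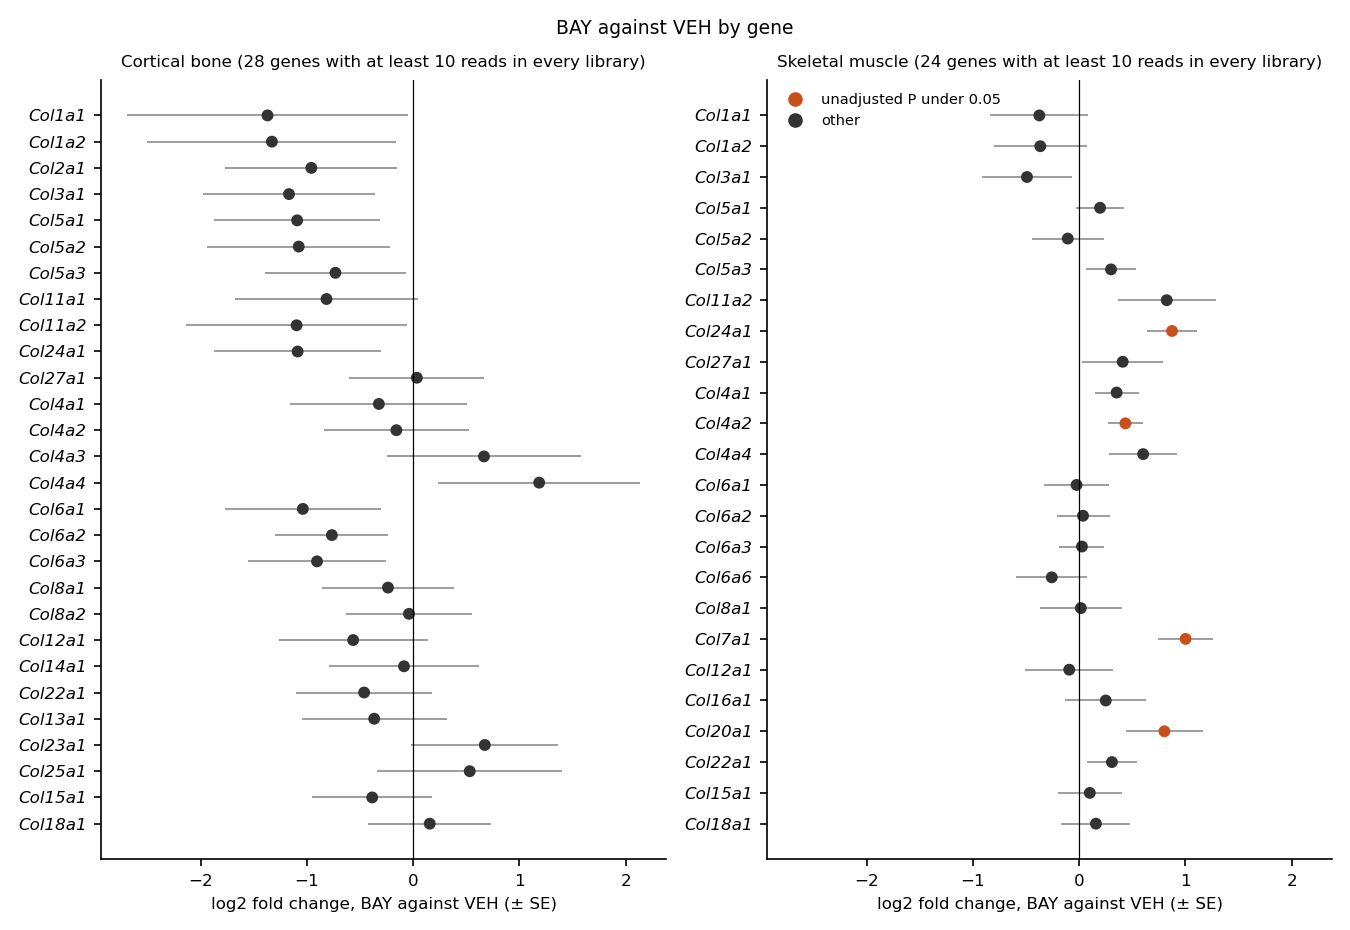
Log2 fold change of BAY against VEH with its SE (limma, n = 4 each) for the collagen genes with at least 10 reads in every library, 28 in cortical bone and 24 in skeletal muscle. Orange points had an unadjusted P under 0.05: none in bone, and Col24a1, Col4a2, Col7a1 and Col20a1 in muscle, all higher in BAY.

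Less abundant genes followed. Col20a1, a FACIT gene, stood at 1.40, 2.51, 1.51 and 1.19 CPM in VEH and at 4.13, 2.61, 1.94 and 2.80 CPM in BAY, from 10 to 30 reads per library (log2 fold change 0.80, SE 0.37, limma unadjusted P = 0.0462). Of 2 other annotated genes that overlap it, 1 lies on its own strand. Col11a2 stood at 5.01, 13.7, 2.38 and 3.46 CPM in VEH and at 10.2, 4.57, 8.39 and 14.2 CPM in BAY, with wide overlap (limma 0.82, SE 0.46, unadjusted P = 0.0950, and voom 0.89, unadjusted P = 0.0211). Col9a1, a cartilage FACIT chain, had 16, 16, 2 and 8 reads in VEH and 17, 10, 17 and 17 in BAY (limma 1.13, SE 0.63, unadjusted P = 0.0958, and voom 1.14, unadjusted P = 0.0279). Single libraries of either group moved these values. Without VEH replicate 2 all 3 were past 2-fold at an unadjusted P under 0.05, where 2.64% of all genes were called, and without VEH replicate 3 the log2 fold change fell to 0.42 for Col9a1 and 0.48 for Col11a2. Col11a2 was also past the threshold without BAY replicate 2 (1.13, limma unadjusted P = 0.0378), and Col20a1 had 0.97 without BAY replicate 3 (limma unadjusted P = 0.0263). In 6 of the fits that left out 1 library, the limma unadjusted P of Col20a1 was not under 0.05, and it reached 0.148.

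Fibrillar chains of loose connective tissue turned on 1 library. Col3a1 stood at 15.7, 23.1, 81.7 and 13.8 CPM in VEH and at 15.5, 13.2, 22.4 and 22.9 CPM in BAY. VEH replicate 3 was more than 3 times any other library, and the log2 fold change of -0.49 (SE 0.43) became 0.072 without it. Col1a1, chosen after its values were seen, stood at 12.3, 25.1, 86.4 and 12.5 CPM in VEH and at 16.8, 15.8, 23.2 and 19.2 CPM in BAY, and its log2 fold change went from -0.37 to 0.24 without VEH replicate 3. That library also held the most RNA of fibroblast markers (124 CPM, others 40.2 to 60.8), tendon markers (127 CPM, others 25.4 to 62.3) and adipocyte markers (169 CPM, others 1.65 to 8.38). Without it, 38 of 44 collagen genes had a positive log2 fold change, with a median of 0.42, beside 61.1% of all genes and a median of 0.12. The part of cell content in these values was not tested.

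**Figure D5:**
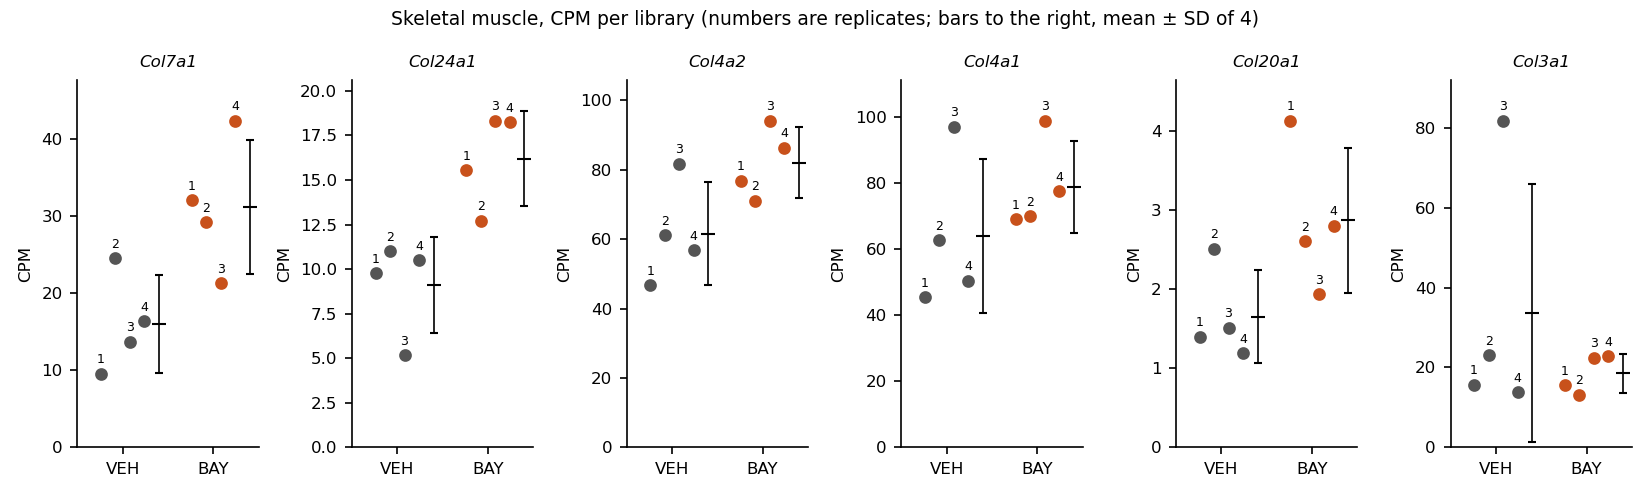
CPM of Col7a1, Col24a1, Col4a2, Col4a1, Col20a1 and Col3a1 in the 8 skeletal muscle libraries (points, numbers are replicates), with the mean and SD of the 4 libraries of each group. BAY libraries of Col24a1 all lie above the VEH libraries, those of Col7a1 overlap in 1, and VEH replicate 3 stands apart in Col3a1 at 81.7 CPM.

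Among genes with at least 10 reads in every library, the highest type VI, multiplexin, FACIT and short-chain genes of muscle had log2 fold changes of 0.31 or less, and none of them passed the test. Col6a3 stood at 33.9, 48.0, 73.7 and 36.1 CPM in VEH and at 47.5, 43.1, 56.8 and 40.1 CPM in BAY (log2 fold change 0.026, SE 0.21). Col15a1, found in the basement membrane of muscle and capillaries, stood at 8.15, 15.1, 26.1 and 10.6 CPM in VEH and at 15.0, 10.1, 16 and 18.5 CPM in BAY (0.10, SE 0.30). Col22a1, a FACIT chain of the muscle-tendon junction, stood at 11.4, 15.2, 18.9 and 9.54 CPM in VEH and at 22.8, 11.4, 15.2 and 18.5 CPM in BAY (0.31, SE 0.24). Col8a1 had a log2 fold change of 0.016 (SE 0.39). The sum of all 44 genes was 459 ± 215 CPM in VEH and 484 ± 65.3 CPM in BAY (SD, n = 4 each). Every class sum overlapped between the groups in both tissues, that of Col7a1 with Col28a1 included (16.3 ± 6.27 against 31.4 ± 8.63 CPM).

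Of 47 other genes that make, process or bind collagen, all were listed in bone and 45 in muscle. In bone 0 of 47 were at an unadjusted P under 0.05 by limma, against 0.64% of all genes. By log2 fold change 13 were positive and 34 negative, with a median of -0.32 beside 0.84 over all genes. The median over all genes rested on VEH replicate 1 and was -0.088 without it. In muscle 2 of 45 were at an unadjusted P under 0.05 by limma, 1 in each direction, a share below the 9.79% of all genes. By log2 fold change 23 were positive and 22 negative there, with a median of 0.00. Plod1, a lysyl hydroxylase that modifies collagen chains before export, stood at 10.1, 14.1, 15.0 and 14.8 CPM in VEH and at 15.96, 19.6, 17.5 and 18.9 CPM in BAY (log2 fold change 0.43, SE 0.16, limma unadjusted P = 0.0177, adjusted P = 0.409). All BAY libraries were above all VEH libraries. Lum, which encodes the fibril-binding proteoglycan lumican and is also 1 of the fibroblast markers, stood at 3.38, 3.90, 9.07 and 3.10 CPM in VEH and at 3.03, 2.28, 2.32 and 1.54 CPM in BAY (-0.98, SE 0.36, limma unadjusted P = 0.0175, adjusted P = 0.409), and all BAY libraries were below all VEH libraries. All 5 genes of the group that holds fibril-bound proteoglycans and Sparc, Lum included, had a lower mean in BAY, and 1 passed the test by limma. By voom Dcn, which encodes decorin, was also at an unadjusted P under 0.05 (-0.52, unadjusted P = 0.0359), which made 3 of 45 against 10.5% of all genes. VEH replicate 3 was the highest library in each of the 5, and without it the log2 fold changes were -0.63 for Lum (limma unadjusted P = 0.0644), -0.20 for Dcn, -0.016 for Sparc, 0.10 for Fmod and 0.23 for Bgn.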

How the data were processed

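RNA was sequenced from cortical bone and TA muscle of 4 VEH and 4 BAY mice each. The authors trimmed reads, aligned them with STAR 2.7.8a to mm39 and counted them in Partek against Ensembl release 104. They deposited log2 values of CPM plus a small offset, which was 0.0001 in bone and 0.0004 in muscle, in tables normalized separately. The strand setting of the counting is not given in the sources used here. Taking off the offset gave CPM, and 81.5% to 88.6% of values up to 50 reads came out whole within 0.02 of a read. Each table was fitted whole with limma 3.58.1 (R 4.3.3, empirical Bayes with a mean-variance trend), with Benjamini-Hochberg adjustment over all genes, and voom on the recovered reads was an alternative. The threshold for a call was an unadjusted P under 0.05 with at least a 2-fold difference. Ratios were compared with two-sided exact permutation tests (scipy 1.17.1). Levels per kb used the exon length of the canonical transcript. No filter on low values was applied in the main fit. Replicate numbers name different mice and do not pair them. The scripts were tested on simulated data. Collagen genes, gene lists and markers were chosen with earlier results of these data known. Genes were named by fixed rules: the 3 highest per kb, the highest of each class with at least 10 reads in every library, and genes at an unadjusted P under 0.05 by limma or voom. Mice were separate animals, and no 2 libraries agreed within sampling noise. Alternatives were other pseudocounts, filters, scalings and trend settings, voom, a replicate block and leaving out each library, and, added after seeing the data, removal of olfactory background or of the 3 bone libraries with the most muscle fiber RNA.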

Additional observations from a re-analysis of the deposited data

Results flagged for a closer look

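Of 116 sets of 4 libraries examined, 11 held 1 library that stood far from the other 3 (a gap above the 95% critical value of Dixon's test). Chance flags about 1 in 20 such sets where they are independent and their values normally distributed. Raw CPM and raw ratios were used here, and their distribution was not tested. The sets are not independent, since genes share libraries and 5 of the 11 (Col1a1, Col1a2, summed type I, summed fibrillar genes and the sum of all 44) carry the same type I values. Among these, 7 came from 1 library, BAY replicate 3 of cortical bone, which was the highest of its group in Col1a1 (12881 CPM), Col1a2 (6499 CPM), Col2a1 (455 CPM), Col6a3 (335 CPM), summed type I (19380 CPM), summed fibrillar genes (21444 CPM) and the sum of all 44 genes (23168 CPM). The same library was the highest of the BAY group in osteoblast and osteocyte (2628 CPM), neutrophil (739 CPM), tendon (466 CPM), fibroblast (329 CPM) and endothelial markers (231 CPM).

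In skeletal muscle, VEH replicate 3 was far above its group in Col3a1, at 81.7 CPM, and below it in the ratio of Col5a1 to Col5a2, at 1.70. In bone, the ratio of Col5a1 to Col5a2 was far above its group in VEH replicate 2, at 1.45, and the ratio of Col6a1 to Col6a2 far below its group in BAY replicate 4, at 0.155.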

How the results depend on the processing

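In cortical bone, the count of 0 called collagen genes, which was also the count at an unadjusted P under 0.05, became 1 with log2(CPM + 1) (Col1a1, -1.37, against 0.501% of all genes called), 1 with quantile normalization (Col20a1, -2.23, against 1.81%) and 3 with voom (against 3.68%). It ran from 0 to 7 with single libraries left out. The 7 came without VEH replicate 2, with Col11a2, Col3a1, Col5a1, Col5a2 and Col6a1 lower and Col6a4 and Col6a6 higher in BAY, and single genes passed without VEH replicate 1 (Col24a1) and without BAY replicate 3 (Col5a1). The log2 difference of the summed collagens (-1.18) kept its sign under its 11 alternatives, from -2.03 to -0.47, and ran from -1.90 to -0.74 with single libraries left out. Signs turned in bone for Col12a1 (0.26), Col18a1 (-0.024) and Col26a1 (-0.061) without the 3 libraries with the most muscle fiber RNA, and for Col25a1 (-0.32) and Col18a1 (-0.69) with median centring and Col18a1 (-0.099) with quantile normalization. With single libraries left out, they ran from -1.06 to 0.32 for Col4a1, -0.64 to 0.070 for Col8a1, -0.33 to 1.12 for Col25a1 and -0.044 to 0.38 for Col18a1.

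In skeletal muscle, the 1 called gene became 0 with log2(CPM + 1), log2(CPM + 0.1), median centring and quantile normalization, where 0.247%, 3.07%, 2.36% and 2.47% of all genes were called and Col7a1 slipped under 2-fold at log2 values of 0.953, 0.997, 0.949 and 0.955. It became 2 with voom, and 0 to 4 with single libraries left out. The 4 genes at an unadjusted P under 0.05 became 2 without VEH replicate 1 (Col7a1 and Col24a1) and 7 without VEH replicate 2, against 10.3% of all genes there. Col7a1 and Col24a1 kept their direction and an unadjusted P under 0.05 in all 16 alternatives. Signs turned for Col6a3 with median centring (-0.027) and quantile normalization (-0.037), and for Col8a1 with log2(CPM + 1) (-0.020), median centring (-0.037), quantile normalization (-0.057) and voom (-0.011). With single libraries left out, the log2 fold change ran from -0.78 to 0.072 for Col3a1, -0.12 to 0.26 for Col6a3, -0.19 to 0.39 for Col8a1, -0.15 to 0.41 for Col15a1, -0.70 to 0.24 for Col1a1 and -0.69 to 0.20 for Col1a2. The cause of these changes was not tested.

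A replicate block left 0 collagen genes called in bone and 1 in muscle, with 4 at an unadjusted P under 0.05, of which Col4a1 (limma unadjusted P = 0.0384) was added and Col20a1 lost. Depth limits the 16 bone and 20 muscle genes with fewer than 10 reads in at least 1 library.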
